A study of Mus musculus with 12 samples.

Results

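The response of the mouse heart to pressure overload on a diet with branched-chain amino acids was described across all genes of 1 deposited table. It holds 6 of the 12 libraries of the study, 3 from control diet hearts after transverse aortic constriction (TAC) and 3 from control diet hearts after sham surgery. All hearts came from male C57Bl/6J mice aged 12 weeks without a transgene or deletion. The control diet held every essential amino acid, with the branched-chain ones at the amounts of standard chow, was given from 4 days before surgery, and went on until hearts were taken 1 week after surgery. The other 6 libraries came from TAC and sham hearts on a diet free of branched-chain amino acids (BCAA-free) and are used only where the response on the control diet is set against theirs. RNA was extracted from heart with Trizol and selected for poly(A) tails. Of 18333 genes in the table, 18305 had a mean of at least 10 normalized reads over the 6 libraries and were tested.

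TAC ties a constriction around the aortic arch, so the left ventricle has to pump against a raised pressure. In the first days and weeks the ventricle thickens. Cardiomyocytes return to parts of their fetal programme, fibroblasts divide and lay down matrix, macrophages gather, and genes of fatty acid and mitochondrial metabolism are reduced. Natriuretic peptides, fetal sarcomere genes and fibrillar collagens are the classical readouts of this state, and the account below gives most room to other genes.

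Depth ran from 76460397 to 110450864 reads per library. Principal component 1 (49.7% of variance) separated the 3 TAC from the 3 sham libraries, and the second, with 19.7%, set TAC 3 apart at -49.4. Its deviations from the group mean had an SD over genes of 0.353 on the log2 scale, against 0.250 to 0.295 in the other 5 libraries. Mitochondrially coded genes took 18.7 ± 1.09% of reads in TAC and 24.3 ± 2.47% in sham libraries (SD, n = 3 each). Summed over Rn7sk, Rmrp and Rpph1, which are short structured RNAs, the level was 4.23, 3.83 and 19.3 CPM in TAC and 2.99, 116 and 2.06 in sham libraries. All 11 cardiomyocyte markers looked up were in the table, with summed levels of 5705089 to 6915976 normalized reads in TAC and 7262796 to 7798331 in sham libraries. Of these 11 markers 0 (0 by edgeR, 0 by DESeq2, 1 at an unadjusted p below 0.05) rose and 1 fell. With scaling to total reads 3 rose and 1 fell. There were 6 falls without TAC 3 and 0 without TAC 1, sham 1, sham 2 or sham 3. Macrophage markers summed to 33468 to 36762 in TAC and 17769 to 23009.9 in sham libraries (7 of 11 rose; 11 rises with scaling to total reads), and proliferating cell markers to 6418 to 11614 and 2152 to 3920.4 (9 of 10 rose). Of 10 endothelial markers limma called 0 (0 by edgeR, 0 by DESeq2, 0 at an unadjusted p below 0.05) higher and 0 (0 by edgeR, 0 by DESeq2, 2 at an unadjusted p below 0.05) lower (2 rises with scaling to total reads), and the T cell markers Cd3d, Cd3e and Cd3g and the neutrophil markers Ly6g, Mmp8, Camp and Ngp were not analysed here. Of 7 other lymphocyte markers 0 (0 by edgeR, 0 by DESeq2, 1 at an unadjusted p below 0.05) were called. Of 6 other neutrophil markers 2 rose, with 0 rises without sham 1 or sham 3. Of 11 fibroblast markers 6 rose and 2 fell, with 2 rises without TAC 1 or sham 2. Of 10 smooth muscle and pericyte markers 3 rose and 2 fell. In both of these lists there was 1 fall without TAC 1, TAC 2, sham 1, sham 2 or sham 3. Atrial RNA varied within groups: Myl7, the atrial light chain, was at 12492, 4985 and 5413 in TAC, against 7192, 11917 and 1569 in sham, and Sln, the atrial calcium pump regulator sarcolipin, at 4074, 1815 and 1628 in TAC, against 2679, 3909 and 456 in sham. In whole-heart RNA, fewer cells of a type and less RNA per cell cannot be told apart.

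Between TAC and sham hearts 2710 genes differed at an adjusted p below 0.05 in limma's test on log2(normalized reads + 1), which is 14.8% of the 18305 tested. Of these 1678 (9.17%) were higher and 1032 (5.64%) lower in TAC hearts. At least 2-fold changes made up 959 of the calls, 760 of them higher and 199 lower, so larger changes were mostly increases. The split between directions moved with the scaling: 61.9% of calls were higher with the deposited size factors and 88.5% with scaling to total reads (3002 higher, 16.4%, and 392 lower, 2.14%), a scaling that shifts the median of all genes by 0.19 log2 units. Each of the 1032 genes kept its negative sign under that scaling. Leaving out 1 library gave 880 higher and 483 lower without TAC 1, 1114 and 745 without TAC 2, 2481 and 2198 without TAC 3, 1048 and 403 without sham 1, 959 and 423 without sham 2 and 985 and 371 without sham 3. A core of 1015 genes, 738 higher and 277 lower, was called whichever library was left out. Genes given below as higher or lower in TAC hearts belong to that core unless a lost call is stated. The median log2 change over all tested genes was -0.02. By annotated type, 1598 of 14743 protein-coding genes were higher and 874 lower, against 23 and 44 of 604 intergenic long non-coding RNAs and 14 and 27 of 786 antisense RNAs.

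**Figure D1:**
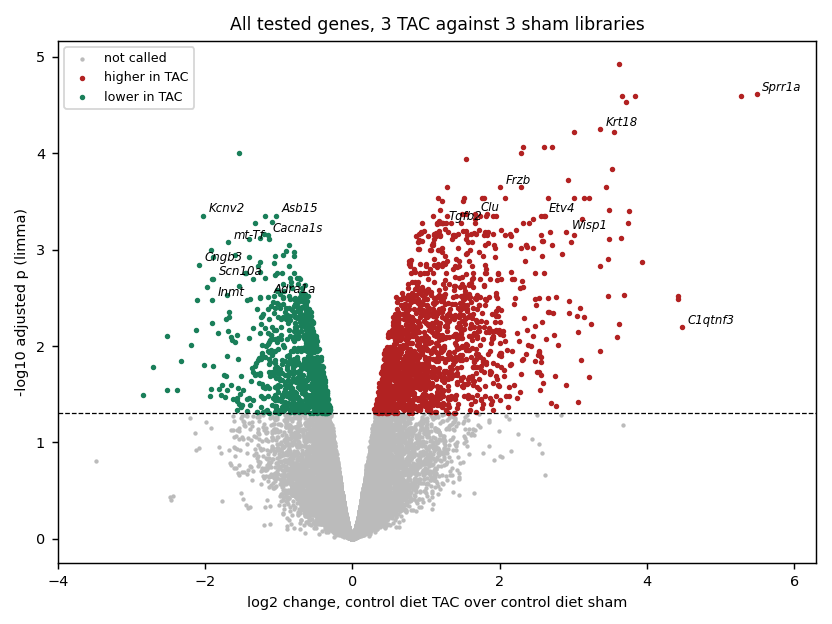
Each point is 1 of the 18305 tested genes, with the log2 change of control diet TAC over control diet sham on the x axis and -log10 of limma's adjusted p on the y axis; the dashed line marks 0.05 and n = 3 libraries per group. Rises reach further from 0 than falls, with Sprr1a at 5.49 and the predicted gene Gm47290 at -2.85 on the log2 scale; only some genes are labelled.

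The largest rise outside the classical genes was that of Sprr1a, a small proline-rich protein best known from the cornified envelope of skin and from stressed cardiomyocytes and injured neurons. Sprr1a (GRCm38 chromosome 3, 92483952 to 92485895, protein coding) had 1162, 878 and 872 normalized reads in the TAC libraries, against 18.4, 28.4 and 16.1 in the sham libraries. The groups lay far apart, and its log2 change was 5.49 ± 0.245 (SE, adjusted p = 2.46e-05). The secreted C1q and TNF-related protein gene C1qtnf3 (chromosome 15, 10952332 to 10980150) had 738, 1245 and 127 normalized reads in the TAC libraries, against 22.8, 20.1 and 20.5 in the sham libraries. TAC 3 was far below TAC 1 and TAC 2 here and still above every sham library, and the change of 4.47 ± 0.721 (SE, adjusted p = 0.00641) had a wider error than that of Sprr1a.

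**Figure D2:**
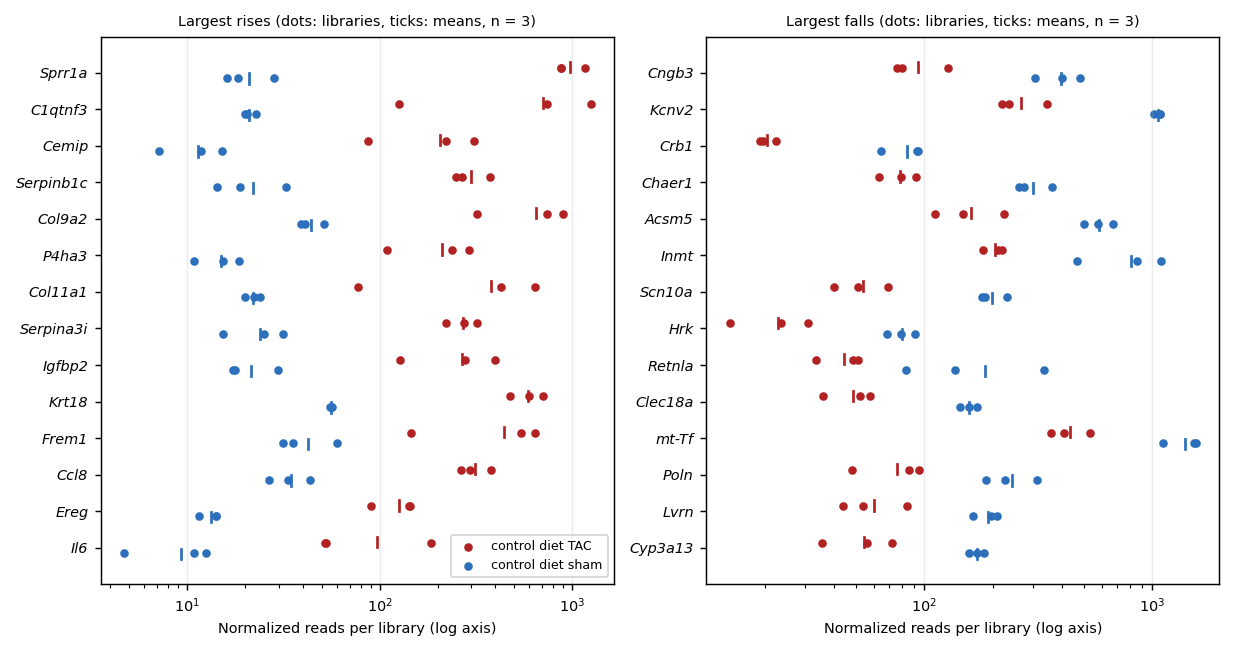
Normalized reads of each library (dots, log x axis) and group means (ticks, n = 3) for 14 of the 15 genes with the largest rises (left panel) and 14 of the 15 with the largest falls (right panel), with control diet TAC above control diet sham in each row. The groups do not overlap in any of the 28 genes, which the choice of genes required, and TAC 3 is the lowest TAC library in 11 of the 14 rises.

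The other largest rises were spread over secreted proteins, matrix enzymes and the cytoskeleton. Cemip, which takes part in the breakdown of hyaluronan, had 222, 311 and 86.8 normalized reads in the TAC libraries, against 15.2, 11.8 and 7.15 in the sham libraries, a log2 change of 3.94. P4ha3, a collagen prolyl hydroxylase subunit, rose by 3.65, Frem1, a basement membrane protein, by 3.15 and Igfbp2, a binding protein of insulin-like growth factors, by 3.47. Serpinb1c and Serpina3i rose by 3.76 and 3.49, and both belong to clusters of near-identical serpin genes between which the counting may have split reads. Ccl8, a chemokine for monocytes, rose by 3.14, with 293, 264 and 377 normalized reads in the TAC libraries, against 33.6, 43.7 and 26.8 in the sham libraries.

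Among ligands of the EGF, FGF and PDGF families and their receptors, 6 of 33 tested members rose and 4 fell, with a median of -0.01 (0.17 with scaling to total reads). Ereg, or epiregulin, a ligand of the EGF receptor (chromosome 5, 91074622 to 91093646), had 90.2, 144 and 143 normalized reads in the TAC libraries, against 14.1, 14.2 and 11.6 in the sham libraries, a change of 3.12 ± 0.283 (SE, adjusted p = 0.000486). Hbegf, the heparin-binding EGF-like growth factor that cardiomyocytes release on hypertrophic stimuli, had 3084, 3625 and 3965 normalized reads in the TAC libraries, against 1475, 1511 and 1602 in the sham libraries. Its change was 1.21 ± 0.113 (SE, adjusted p = 0.000532), and the sham libraries lay within a narrow band. Egf itself ran the other way, with 529.8, 562 and 516 normalized reads in the TAC libraries, against 883, 899.7 and 908 in the sham libraries, a change of -0.74 ± 0.109 (SE, adjusted p = 0.00341). Pdgfrl, a PDGF receptor-like protein, rose by 1.501 and the FGF receptor Fgfr1 by 0.74. Leaving out 1 library gave 1 fall without TAC 1, sham 2 or sham 3 and 2 without TAC 2 or sham 1, and scaling to total reads gave 1 fall.

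Of 45 Wnt pathway genes 10 rose, 0 (2 by edgeR, 3 by DESeq2, 4 at an unadjusted p below 0.05) fell and the median was near 0, so most members were not called. Frzb, a secreted protein that binds Wnt ligands (chromosome 2, 80411970 to 80447625), had 2100.5, 2798 and 2088 normalized reads in the TAC libraries, against 500.1, 634 and 598 in the sham libraries. Its change of 2.004 ± 0.148 (SE, adjusted p = 0.000227) was accompanied by rises of 2.60 for Sfrp2 and 1.72 for Sfrp1, of the same family of Wnt-binding proteins. Wisp1 and Wisp2 code for matricellular proteins of the CCN family. Wisp1 (chromosome 15, 66891320 to 66923201) had 1153, 1596 and 632 normalized reads in the TAC libraries, against 138, 139.5 and 141 in the sham libraries, a change of 2.91 ± 0.288 (SE, adjusted p = 0.000664), and Wisp2 rose by 1.95. The receptor Fzd1 rose by 0.79. In fits without 1 library the list had 6 rises without TAC 1.

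The activin and BMP pathway list showed 7 rises and 0 (0 by edgeR, 2 by DESeq2, 4 at an unadjusted p below 0.05) falls among 35 members, with a median of 0.17. The ligand Gdf6, a growth and differentiation factor of joints and bone (chromosome 4, 9844372 to 9862345), had 397, 829.9 and 734 normalized reads in the TAC libraries, against 125, 88.7 and 102 in the sham libraries, a change of 2.57 ± 0.275 (SE, adjusted p = 0.000815). Inhba, which codes for the activin A subunit, rose by 1.38. The follistatin-like proteins rose with it: Fstl3, which binds activin, by 1.48, and Fstl1, a secreted glycoprotein, with 43951, 48904 and 30149 normalized reads in the TAC libraries, against 12019, 8262 and 9848 in the sham libraries, by 2.02 ± 0.197 (SE, adjusted p = 0.000629). Id2, an inhibitor of basic helix-loop-helix factors and a BMP target, rose by 0.63. 

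Of 49 interleukins and their receptors 13 rose and 2 fell. Il6 was at low levels in sham hearts, with 52.8, 185 and 52.3 normalized reads in the TAC libraries, against 10.8, 4.73 and 12.5 in the sham libraries, and TAC 2 stood above the other TAC libraries. Its change was 3.06 ± 0.543 (SE, adjusted p = 0.0071). Il1rn, the natural antagonist of the interleukin 1 receptor, rose by 2.02, and the receptor chains Il4ra, Il3ra and Il17ra by 1.03, 0.90 and 0.80. Il15, which maintains natural killer and memory T cells and is also made by muscle, had 1400.04, 1019.8 and 1450.2 normalized reads in the TAC libraries, against 2666, 2698 and 2430.5 in the sham libraries, a change of -1.03 ± 0.142 (SE, adjusted p = 0.00271). The macrophage markers described above moved with these genes, and their part in the counts was not tested. Omission of single libraries gave 5 rises without TAC 1, 6 without TAC 2 or sham 3, 7 without sham 2, 1 fall without TAC 2 or sham 2 and 4 without TAC 3.

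In the TNF superfamily 7 of 34 tested members, all of them receptors, rose and 0 (0 by edgeR, 0 by DESeq2, 1 at an unadjusted p below 0.05) fell. Tnfrsf12a, the receptor of TWEAK (chromosome 17, 23675445 to 23677468), had 10445, 11065 and 11252 normalized reads in the TAC libraries, against 4466, 4941 and 5823 in the sham libraries, a change of 1.11 ± 0.115 (SE, adjusted p = 0.00071). Tnfrsf11b, or osteoprotegerin, the soluble decoy receptor of RANKL, rose by 2.34. The TNF receptors Tnfrsf1a and Tnfrsf1b rose by 0.60 and 0.89. Without single libraries the calls came to 4 rises without TAC 1.

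Among genes of cartilage, bone and tendon 19 of 33 rose, with 0 (0 by edgeR, 1 by DESeq2, 1 at an unadjusted p below 0.05) falls and a median log2 change of 1.15, and 11 of them kept the call whichever library was left out. Col9a2, a chain of the cartilage collagen IX (chromosome 4, 121039385 to 121055322), had 895, 742 and 320.1 normalized reads in the TAC libraries, against 41.2, 39.0 and 51.8 in the sham libraries, a change of 3.74 ± 0.351 (SE, adjusted p = 0.000532). Cilp, the cartilage intermediate layer protein (chromosome 9, 65265180 to 65280605), had 15251, 19691 and 8929.7 normalized reads in the TAC libraries, against 1703, 1689 and 1789 in the sham libraries. The sham libraries differed little from each other, TAC 3 was the lowest TAC library, and the change was 3.01 ± 0.238 (SE, adjusted p = 0.000289). Comp, the cartilage oligomeric matrix protein, rose by 2.32, Col11a1 by 3.59 and Clec11a, a secreted factor that promotes bone formation, by 2.14. The transcription factors of chondrocytes and tendon, Sox9 and Scx, rose by 1.94 and 1.15, and Enpp1 and Mgp, which are known to limit mineral deposition, by 1.62 and 1.496. The list's median by library was 1.20, 1.22 and 0.64 in TAC and 0.02, 0.18 and -0.08 in sham libraries, relative to the sham mean. When 1 library was left out, the calls were 12 rises without TAC 1.

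**Figure D3:**
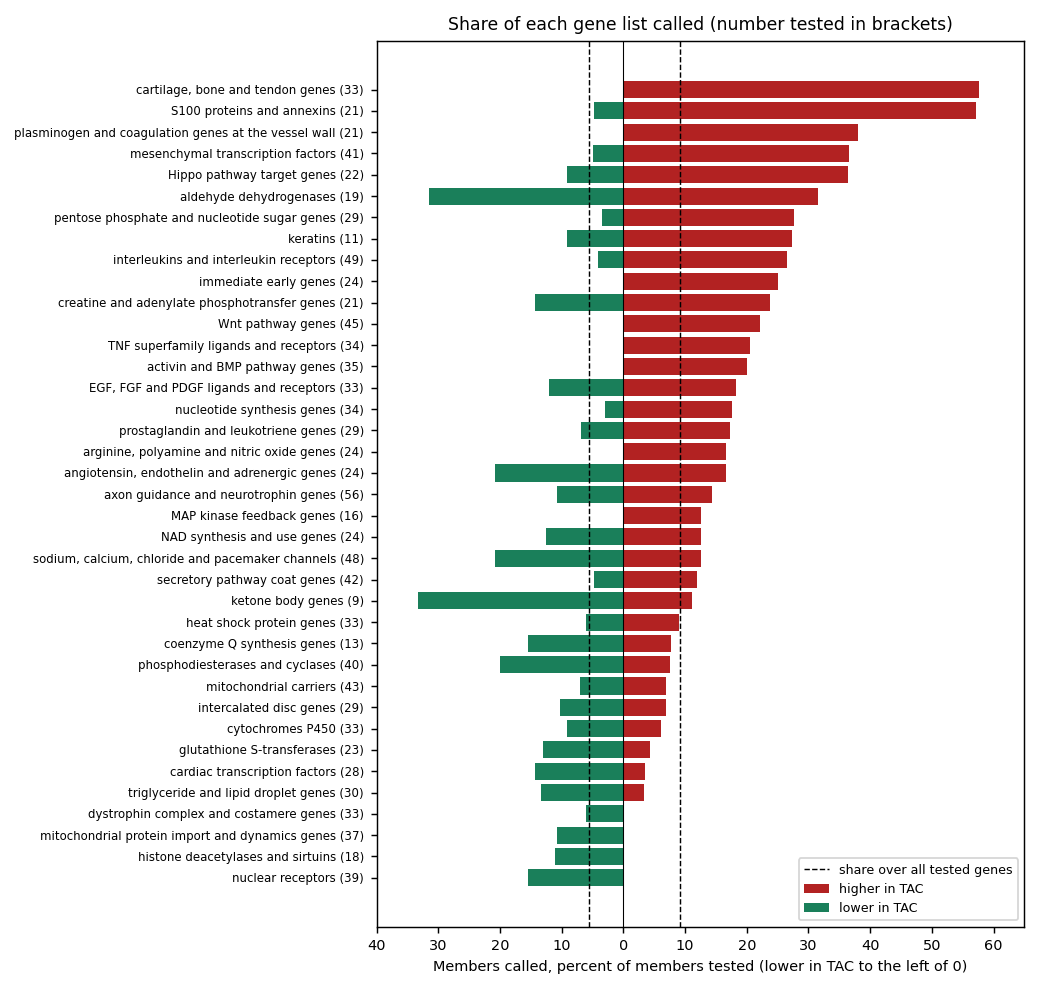
For each gene list, the percent of tested members called higher in control diet TAC (bars right of 0) and lower (bars left of 0), with the number tested in brackets and dashed lines at the share over all tested genes, 9.17% higher and 5.64% lower. Cartilage, bone and tendon genes and the S100 proteins and annexins stand at the top of the lists drawn, and nuclear receptors at the bottom with none higher.

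Transcription factors of mesenchymal cells followed the same direction, with 15 of 41 higher, 2 lower and a median of 0.33. Etv4, a factor of the ETS family that is switched on by FGF signals (chromosome 11, 101769742 to 101785371), had 312, 353 and 279 normalized reads in the TAC libraries, against 61.8, 37.8 and 56.3 in the sham libraries, a change of 2.60 ± 0.231 (SE, adjusted p = 0.000444). The homeobox factors Prrx2 and Meox1 rose by 1.90 and 1.79, and Runx1 and Runx3 by 1.64 and 1.31. Snai1, known for its part in epithelial to mesenchymal transition, rose by 1.20 and Foxc2 by 1.03. Scx, the tendon factor scleraxis, was tight in both groups, with 1075, 1183 and 1144 in TAC, against 532, 502 and 493 in sham. The 2 factors that fell, Sox6 (-0.49, call lost without sham 1, sham 2, sham 3 or TAC 1) and Epas1 (-0.53, lost without sham 2 or sham 3), were not called with scaling to total reads. Fits that left out 1 library gave 9 rises without TAC 1, 0 falls without sham 2 or sham 3 and 1 without TAC 1 or sham 1, and scaling to total reads gave 0 falls.

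Of 28 cardiac transcription factors 1 rose and 4 fell. Tbx20, a T-box factor needed in the adult heart (chromosome 9, 24718138 to 24774303), had 11820.3, 12013 and 12884 normalized reads in the TAC libraries, against 8390.2, 8978 and 7989 in the sham libraries, a change of 0.53 ± 0.0959 (SE, adjusted p = 0.00745). Hopx, a homeodomain protein that restrains serum response factor, had 11052, 8832 and 12626 normalized reads in the TAC libraries, against 17906, 19073 and 18334 in the sham libraries, a change of -0.78 ± 0.135 (SE, adjusted p = 0.00634). Prox1, a homeobox factor of muscle and lymphatic vessels, fell by 0.75. The other 23 members, among them the core factors of cardiomyocyte identity on the list, did not pass. With single libraries left out, there were 2 falls without sham 2 and 8 without TAC 3, and scaling to total reads gave 2 falls.

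Immediate early genes varied within the sham group, so their counts rest on few libraries. The median of the 24 members by library was 0.15, 0.87 and 0.23 in TAC and -0.09, 0.45 and -0.40 in sham libraries, so TAC 2 was high, sham 2 was above TAC 1 and TAC 3, and the groups overlapped. Of these genes 6 rose and 0 (0 by edgeR, 0 by DESeq2, 0 at an unadjusted p below 0.05) fell, and only Egr2, a zinc finger factor, kept its call whichever library was left out. Egr2 had 516, 698 and 367 normalized reads in the TAC libraries, against 124, 154 and 53.6 in the sham libraries, a change of 2.33 ± 0.380 (SE, adjusted p = 0.00512). Leaving out 1 library gave 1 rise without sham 1 or sham 3, 2 without TAC 1 or TAC 2, 3 without TAC 3 and 8 without sham 2. With TAC 3 and sham 2 both left out there were 9 rises. Of 16 feedback genes of the MAP kinases, which code for dual-specificity phosphatases and Sprouty proteins, 2 rose and 0 (1 by edgeR, 1 by DESeq2, 2 at an unadjusted p below 0.05) fell. The share that rose was 12.5%, beside 9.17% over all genes. In fits without 1 library the list had 0 rises without TAC 1 or sham 3 and 1 without TAC 2.

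Targets of the Hippo pathway, whose effectors Yap and Taz act through TEAD factors, had 8 rises and 2 falls among 22 members, with a median of 0.12. Ankrd1, the cardiac ankyrin repeat protein of the sarcomere (chromosome 19, 36111961 to 36120099), had 306006, 455840.4 and 458519 normalized reads in the TAC libraries, against 92124, 164766 and 147214 in the sham libraries, a change of 1.61 ± 0.239 (SE, adjusted p = 0.00346). Tgfb2 had 2473, 2805 and 2265 normalized reads in the TAC libraries, against 964, 1101 and 1129.9 in the sham libraries, a change of 1.24 ± 0.117 (SE, adjusted p = 0.000532). Fjx1, a secreted relative of the fly protein four-jointed, rose by 1.61, Ccdc80 by 0.90 and the receptor tyrosine kinase Axl by 0.58. Amotl2, which holds Yap in the cytoplasm, fell by 0.77. Omission of single libraries gave 1 fall without TAC 1, sham 1, sham 2 or sham 3 and 4 without TAC 3, and scaling to total reads gave 1 fall.

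Promoters of 4 of the 5 named genes whose window holds 2 matches of one of the motifs searched are shown, for each motif 1 gene that rose and 1 that fell: AP-1 in Sprr1a, which rose, and Cyp3a13, which fell, and TEAD in Ankrd1, which rose, and Coq8a, which fell. The other is Ddah2, which rose and holds 2 TEAD matches. The motifs were AP-1 (TGANTCA), TEAD (CATTCC) and the estrogen-related receptors (AAGGTCA), on both strands, in the window of 250 bases before to 50 after each start; the letters of the 3 motifs do not contain one another. Windows are from RefSeq, build GRCm38.p6, 5′ to 3′ on the gene's strand, and a window was found for 117 of 157 named genes. Capitals mark the matches of the motif named for each gene.
Sprr1a (chr3:92485832-92486131, minus strand): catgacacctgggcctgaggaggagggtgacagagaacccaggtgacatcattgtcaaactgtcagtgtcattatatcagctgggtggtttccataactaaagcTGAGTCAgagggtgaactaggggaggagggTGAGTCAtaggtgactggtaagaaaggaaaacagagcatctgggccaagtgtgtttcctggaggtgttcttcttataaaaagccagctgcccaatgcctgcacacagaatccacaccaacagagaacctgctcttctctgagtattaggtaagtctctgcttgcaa
Ankrd1 (chr19:36119795-36120094, minus strand): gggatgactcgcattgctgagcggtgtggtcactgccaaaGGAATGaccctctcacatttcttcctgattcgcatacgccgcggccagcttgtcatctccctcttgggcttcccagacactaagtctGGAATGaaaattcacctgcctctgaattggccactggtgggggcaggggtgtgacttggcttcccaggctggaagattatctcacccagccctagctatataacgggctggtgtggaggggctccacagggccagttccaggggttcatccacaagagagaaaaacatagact
Cyp3a13 (chr5:137921570-137921869, minus strand): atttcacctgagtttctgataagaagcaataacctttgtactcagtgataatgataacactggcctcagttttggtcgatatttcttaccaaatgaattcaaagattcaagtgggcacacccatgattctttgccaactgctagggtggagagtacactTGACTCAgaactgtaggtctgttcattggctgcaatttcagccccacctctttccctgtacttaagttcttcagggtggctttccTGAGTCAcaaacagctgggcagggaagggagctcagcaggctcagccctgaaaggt
Coq8a (chr1:180193436-180193735, minus strand): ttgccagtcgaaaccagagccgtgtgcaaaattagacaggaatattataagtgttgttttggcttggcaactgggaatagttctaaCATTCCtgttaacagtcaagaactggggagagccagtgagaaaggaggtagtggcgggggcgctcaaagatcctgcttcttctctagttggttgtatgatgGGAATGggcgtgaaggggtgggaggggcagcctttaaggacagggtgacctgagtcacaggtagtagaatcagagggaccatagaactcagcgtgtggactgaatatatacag
The Sprr1a matches of AP-1 begin 146 and 116 bases before the start, the Ankrd1 matches of TEAD 210 and 123 bases, the Cyp3a13 matches of AP-1 91 and 6 bases and the Coq8a matches of TEAD 164 and 63 bases. Coq8a, which takes part in coenzyme Q synthesis, fell by 0.53 and lost its call without sham 1 (0.0597), sham 2 (0.0553) and sham 3 (0.0652), with the adjusted p in brackets. An AP-1 match was in 10.6% of the 678 windows of genes that rose at least 2-fold, 3.88% of the 129 windows of genes that fell at least 2-fold, 5.60% of the windows of all tested genes and 7.81% of all promoters in the reference. For TEAD the shares were 15.2, 17.8, 12.8 and 14.7%, and for the estrogen-related receptor motif 3.24, 6.98, 3.44 and 4.72%, in the same order. Over all called genes AP-1 was in 8% of 1600 windows of genes that rose and 6.13% of 946 windows of genes that fell, TEAD in 13.8% and 13.4%, and the estrogen-related receptor motif in 2.56% and 4.33%. The 3.88% for AP-1 came from 5 windows. Among the named genes with a window, AP-1 was in 6 of 68 that rose and 6 of 49 that fell. TEAD was in 14 and 11 of them, and the estrogen-related receptor motif in 6 and 2. These shares and counts are descriptions of letters and were not tested.

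Keratins 8 and 18 form the filaments of simple epithelia, and both rose. Krt18 (chromosome 15, 102028180 to 102032027) had 707, 594 and 478 normalized reads in the TAC libraries, against 55.3, 56.7 and 56.3 in the sham libraries. The 3 sham libraries were nearly equal, and the change was 3.36 ± 0.189 (SE, adjusted p = 5.64e-05). Krt8 rose by 2.32 and Krt80 by 1.29, so 3 of 11 keratins rose, and 1, Krt222, fell (-0.45), a call lost without TAC 1 and with scaling to total reads. Krt8 is also a marker of the epicardium and mesothelium. The 8 markers of that covering layer summed to 2788 to 3211 in TAC and 962 to 1589 in sham libraries, but Krt8 and Aldh1a2 were the 2 called. Its defining marker Upk3b was at 149.5, 96.1 and 107 in TAC, against 181, 82.8 and 9.83 in sham (adjusted p = 0.491), so it overlapped between groups and varied widely among sham libraries, as did Msln, at 115, 106 and 97.1 in TAC, against 118, 35.5 and 12.5 in sham (adjusted p = 0.162).

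Calcium-binding S100 proteins and annexins, which bind membranes in a calcium-dependent way, had 12 rises and 1 fall among 21 members, with a median of 0.57. Anxa2 (chromosome 9, 69453620 to 69491795) had 14372, 12072 and 12557 normalized reads in the TAC libraries, against 6609, 5213 and 5697 in the sham libraries, a change of 1.16 ± 0.119 (SE, adjusted p = 0.00071). Anxa1, known to limit inflammation, had 5114, 5708 and 6399 normalized reads in the TAC libraries, against 2917, 2424 and 2476 in the sham libraries, a change of 1.14 ± 0.118 (SE, adjusted p = 0.000715). S100a4 rose by 1.44, S100a11 by 1.31, Anxa8 by 1.72, S100a6 by 0.98 and Anxa4 by 0.59. The list's median by library was 0.58, 0.51 and 0.60 in TAC and 0.16, -0.05 and -0.12 in sham, so TAC 3 was not the lowest here. Without single libraries the calls came to 7 rises without sham 2 or sham 3, 0 falls without TAC 1, TAC 2, sham 1, sham 2 or sham 3 and 2 without TAC 3, and scaling to total reads gave 0 falls. The fall, of Anxa11 (-0.38), was lost without sham 1, sham 2, sham 3, TAC 1 or TAC 2 and with scaling to total reads.

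The plasminogen and coagulation genes of the vessel wall had 8 rises and 0 (0 by edgeR, 1 by DESeq2, 2 at an unadjusted p below 0.05) falls among 21 members, with a median of 0.52. Serpine2, an inhibitor of thrombin and plasminogen activators (chromosome 1, 79794197 to 79861180), had 5388, 5986 and 4444 normalized reads in the TAC libraries, against 2576, 2522 and 2389 in the sham libraries, a change of 1.07 ± 0.120 (SE, adjusted p = 0.000998). Plaur, the urokinase receptor, rose by 1.10 and F2r, a thrombin receptor, by 0.77. This list shares Anxa2 and S100a10, a cell-surface plasminogen receptor pair, with the list before, and S100a10 is named for its membership alone. When 1 library was left out, the calls were 5 rises without sham 2.

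Prostaglandin and leukotriene genes had 5 rises and 2 falls among 29 members. Ptgis, which makes prostacyclin (chromosome 2, 167191805 to 167240604), had 2989, 3079.5 and 3187 normalized reads in the TAC libraries, against 1226, 1529.9 and 1146 in the sham libraries, a change of 1.26 ± 0.122 (SE, adjusted p = 0.000616). Pla2g4a, the cytosolic phospholipase that releases arachidonic acid, rose by 1.09. Pla2g5, a secreted phospholipase, had 1682, 1207 and 1571 normalized reads in the TAC libraries, against 3946, 2994 and 3149.5 in the sham libraries, a change of -1.18 ± 0.153 (SE, adjusted p = 0.00199). Fits that left out 1 library gave 3 rises without TAC 1, sham 1 or sham 3, 8 without TAC 3 and 1 fall without TAC 1, sham 1 or sham 3, and scaling to total reads gave 1 fall.

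Of 56 genes of axon guidance and neurotrophins 8 rose and 6 fell, with a median of -0.01 (0.18 with scaling to total reads). Sema3f, a repellent semaphorin, had 2767, 3135 and 3037 normalized reads in the TAC libraries, against 1479.5, 1505 and 1569 in the sham libraries, a change of 0.97 ± 0.0949 (SE, adjusted p = 0.000634). The receptors Plxnb1 and Gfra1 ran lower. Plxnb1, a plexin that binds Sema4d, had 3030.04, 2973 and 2286 normalized reads in the TAC libraries, against 4742, 6456 and 6124 in the sham libraries, a change of -1.06 ± 0.151 (SE, adjusted p = 0.00305), and Gfra1, the GDNF receptor, fell by 1.02. With single libraries left out, there were 1 rise without TAC 1, 3 without sham 1, sham 2 or sham 3, 4 without TAC 2, 13 without TAC 3, 2 falls without sham 1 or sham 3 and 3 without TAC 1 or sham 2, and scaling to total reads gave 2 falls.

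Receptors and enzymes of the angiotensin, endothelin and adrenergic systems were split, with 4 rises and 5 falls of 24. Ace, which makes angiotensin II (chromosome 11, 105967945 to 105989964), had 12066, 13198 and 8685 normalized reads in the TAC libraries, against 5793, 5422 and 5919 in the sham libraries, a change of 0.96 ± 0.151 (SE, adjusted p = 0.00427). Edn3, or endothelin 3, rose by 1.56 and the endothelin-converting enzyme Ece2 by 0.66. Adra1a, the alpha 1A adrenergic receptor of cardiomyocytes (chromosome 14, 66635251 to 66771168), had 989.7, 1136 and 719 normalized reads in the TAC libraries, against 1913, 2048 and 2228 in the sham libraries, a change of -1.14 ± 0.164 (SE, adjusted p = 0.0031). Chrm2, the muscarinic receptor through which the vagus nerve slows the heart, fell by 0.63. Dbh, the noradrenaline-making enzyme of sympathetic nerves and one of 8 nerve and Schwann cell markers tested, fell by 1.13. Of these 8 markers 1 was called higher and 1 lower, and there were 0 rises without TAC 1, TAC 2, sham 1, sham 2 or sham 3. The markers together summed to 2031 to 2699 in TAC and 2525 to 2621 in sham libraries. The nerve marker Th was not analysed here. Leaving out 1 library gave 3 falls without TAC 1, sham 1, sham 2 or sham 3, and scaling to total reads gave 8 rises and 3 falls.

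Among genes with a mean of at least 50 normalized reads, the largest falls came from several classes. Kcnv2, a silent subunit that modifies potassium channels (chromosome 19, 27322588 to 27337179), had 344, 219 and 235 normalized reads in the TAC libraries, against 1085, 1085 and 1014 in the sham libraries. The sham libraries were close together, and the change was -2.02 ± 0.177 (SE, adjusted p = 0.000444). Cngb3, a subunit of the cyclic nucleotide-gated channel of cones, fell by 2.08, and Crb1, an apical polarity protein, by 1.97. Acsm5, an acyl-CoA synthetase for medium-chain fatty acids, fell by 1.90, and Inmt, a methyltransferase of indolethylamines, fell by 1.90 and the BH3-only cell death gene Hrk by 1.82. Chaer1, a heart-enriched long non-coding RNA (chromosome 5, 77138471 to 77140252), had 91.8, 79.3 and 63.5 normalized reads in the TAC libraries, against 274, 260.1 and 363 in the sham libraries, a change of -1.92 ± 0.216 (SE, adjusted p = 0.000998).

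Ion channels of sodium, calcium, chloride and pacemaker currents had 6 rises and 10 falls of 48, against 5.64% lower over all genes, with a median of -0.22. Cacna1s, the calcium channel subunit of skeletal muscle (chromosome 1, 136052750 to 136119822), had 417, 409.9 and 386 normalized reads in the TAC libraries, against 850.4, 968 and 883 in the sham libraries, a change of -1.15 ± 0.118 (SE, adjusted p = 0.00071). Scn10a, a sodium channel first known from sensory neurons, had 69.1, 40.2 and 51.3 normalized reads in the TAC libraries, against 229.96, 179 and 185 in the sham libraries, a change of -1.89 ± 0.246 (SE, adjusted p = 0.00201). The anoctamins Ano5 and Ano10 fell by 1.45 and 1.05, and the muscle chloride channel Clcn1 by 1.45. Piezo2, a channel opened by mechanical force, rose by 2.01. The list's median by library was -0.10, -0.11 and -0.37 in TAC and -0.01, -0.01 and 0.00 in sham libraries, with TAC 3 the lowest. In fits without 1 library the list had 2 rises without TAC 1, TAC 2, sham 2 or sham 3 and 3 without sham 1, and scaling to total reads gave 6 falls.

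Phosphodiesterases and cyclases, which set cyclic AMP and cyclic GMP, had 3 rises and 8 falls of 40. Pde4c had 559.9, 498 and 570.2 normalized reads in the TAC libraries, against 821, 878 and 801 in the sham libraries, a change of -0.62 ± 0.118 (SE, adjusted p = 0.00941). Adcy2, an adenylyl cyclase, rose, with 88.6, 121 and 57.9 normalized reads in the TAC libraries, against 21.7, 17.7 and 21.4 in the sham libraries, by 2.02 ± 0.314 (SE, adjusted p = 0.00419). Omission of single libraries gave 1 rise without TAC 1, sham 1 or sham 2, 6 without TAC 3, 2 falls without sham 3, 3 without TAC 1 or sham 2 and 4 without sham 1, and scaling to total reads gave 6 rises and 2 falls.

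Among intercalated disc genes, 2 of 29 rose and 3 fell (6.90% and 10.3%, beside 9.17% and 5.64% over all genes). Des, the desmin intermediate filament (chromosome 1, 75360329 to 75368579), had 252692, 264779 and 306388 normalized reads in the TAC libraries, against 151266, 152657 and 147887 in the sham libraries, a change of 0.86 ± 0.121 (SE, adjusted p = 0.00294). Dsg2, the desmosomal cadherin desmoglein 2, fell by 0.75. Without single libraries the calls came to 1 rise without sham 1, sham 2 or sham 3, 5 without TAC 3, 1 fall without sham 3 and 7 without TAC 3, and scaling to total reads gave 4 rises. In the dystrophin complex and costameres 0 (0 by edgeR, 0 by DESeq2, 2 at an unadjusted p below 0.05) of 33 rose and 2 fell, and both falls were called only without TAC 3 among the fits that leave out a library and lost with scaling to total reads.

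Nuclear receptors had 0 (0 by edgeR, 0 by DESeq2, 0 at an unadjusted p below 0.05) rises and 6 falls among 39 members, with a median of -0.08 (0.11 with scaling to total reads). Nr1d1, the clock repressor Rev-erb alpha (chromosome 11, 98767932 to 98775333), had 6356, 5730.1 and 5231 normalized reads in the TAC libraries, against 9228, 8347 and 9779.96 in the sham libraries, a change of -0.66 ± 0.110 (SE, adjusted p = 0.00546), and was the one member to keep its call whichever library was left out. Esrrg, the estrogen-related receptor gamma of oxidative metabolism, had 3261, 3305 and 3884 normalized reads in the TAC libraries, against 5048, 4718 and 5122 in the sham libraries, a change of -0.51 ± 0.102 (SE, adjusted p = 0.0115). It lost the call without sham 1 (0.0518), sham 3 (0.058) and TAC 1 (0.0539), with the adjusted p in brackets. Ppara, the fatty acid receptor, had 1824, 2009 and 1038 normalized reads in the TAC libraries, against 2915, 3225 and 3122 in the sham libraries, with TAC 3 the lowest, a change of -0.98 ± 0.216 (SE, adjusted p = 0.0173), and lost the call without sham 1 (0.0573), sham 2 (0.0624) and sham 3 (0.0586) and with scaling to total reads. When 1 library was left out, the calls were 2 falls without sham 1, sham 2 or sham 3, 3 without TAC 1 and 10 without TAC 3, and scaling to total reads gave 2 falls.

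Lists of mitochondrial genes depended on TAC 3. Of 37 genes of protein import and mitochondrial dynamics 0 (0 by edgeR, 0 by DESeq2, 0 at an unadjusted p below 0.05) rose and 4 fell. Fits that left out 1 library gave 0 falls without TAC 1, sham 2 or sham 3, 1 without sham 1, 2 without TAC 2 and 16 without TAC 3, and scaling to total reads gave 1 rise and 0 falls. Of 43 carriers of the SLC25 family 3 rose and 3 fell (6.98% and 6.98%, beside 9.17% and 5.64% over all genes). With single libraries left out, there were 0 rises without TAC 1, 1 without sham 2, 0 falls without TAC 1, sham 2 or sham 3, 1 without TAC 2 or sham 1 and 15 without TAC 3, and scaling to total reads gave 5 rises and 0 falls. Of 13 genes of coenzyme Q synthesis 1 rose and 2 fell. Leaving out 1 library gave 0 rises without TAC 1, TAC 2, sham 1, sham 2 or sham 3, 0 falls without sham 1, sham 2 or sham 3, 1 without TAC 1 or TAC 2 and 9 without TAC 3, and scaling to total reads gave 1 fall. The carriers' median by library was -0.24, -0.19 and -0.01 in TAC, so TAC 3 lay at the sham level (0.03, -0.01 and -0.02), and the lists give no steady count at this number of libraries.

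In NAD metabolism 3 of 24 members rose and 3 fell. Nampt, the rate-limiting enzyme of NAD salvage (chromosome 12, 32819545 to 32853349), had 14619.6, 14919.5 and 15938 normalized reads in the TAC libraries, against 23843, 23765 and 23055 in the sham libraries, a change of -0.64 ± 0.0949 (SE, adjusted p = 0.0036). Nnt, the transhydrogenase of the inner mitochondrial membrane, had 30169.6, 28945 and 31714 normalized reads in the TAC libraries, against 43485, 44041 and 46773 in the sham libraries, a change of -0.56 ± 0.101 (SE, adjusted p = 0.00746). Nnmt, which methylates nicotinamide, rose by 1.11. In fits without 1 library the list had 6 falls without TAC 3.

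Aldehyde dehydrogenases went both ways, 6 higher and 6 lower of 19. Aldh1a2 and Aldh1a3 make retinoic acid. Aldh1a2 (chromosome 9, 71215789 to 71296243) had 1534, 2052 and 1655 normalized reads in the TAC libraries, against 507, 289.7 and 473 in the sham libraries, a change of 2.07 ± 0.213 (SE, adjusted p = 0.00071), and Aldh1a3 rose by 1.21. Among mitochondrial members, Aldh6a1, of valine breakdown, had 14012, 14210.2 and 15817 normalized reads in the TAC libraries, against 22599.9, 22611 and 24211 in the sham libraries, a change of -0.66 ± 0.100 (SE, adjusted p = 0.00395), and Aldh5a1, of GABA breakdown, fell by 0.62. Of the falls 4 were called with scaling to total reads. Omission of single libraries gave 2 rises without sham 3, 3 without TAC 1, TAC 2 or sham 1, 2 falls without sham 1 or sham 2 and 3 without sham 3.

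Of 24 arginine, polyamine and nitric oxide genes 4 rose and 0 (0 by edgeR, 0 by DESeq2, 0 at an unadjusted p below 0.05) fell. The 4 that rose kept their calls whichever library was left out, and scaling to total reads gave 9 rises. Ddah1, which clears the nitric oxide synthase inhibitor dimethylarginine (chromosome 3, 145758675 to 145894277), had 2998, 3008 and 1562 normalized reads in the TAC libraries, against 707, 698 and 676 in the sham libraries, a change of 1.80 ± 0.228 (SE, adjusted p = 0.00177). Its relative Ddah2 rose by 0.76, Ass1, of arginine synthesis, by 1.02 and Azin2, an antizyme inhibitor, by 1.07. Of 34 nucleotide synthesis genes 6 rose and 1 fell. Tyms, thymidylate synthase, rose by 1.40, and Uck2, the uridine-cytidine kinase of pyrimidine salvage, had 7293, 11313 and 10436 normalized reads in the TAC libraries, against 4017, 3455 and 4524 in the sham libraries, a change of 1.26 ± 0.171 (SE, adjusted p = 0.00248). The proliferating cell markers moved with the nucleotide genes, and their part was not tested. Without single libraries the calls came to 2 rises without sham 1 or sham 2, 3 without TAC 1, 0 falls without TAC 1, sham 1, sham 2 or sham 3 and 6 without TAC 3, and scaling to total reads gave 11 rises and 0 falls.

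In the pentose phosphate and nucleotide sugar list 8 of 29 rose and 1 fell. Ugdh, which makes the UDP-glucuronate used for hyaluronan and other matrix glycans, had 2317, 2613 and 2256 normalized reads in the TAC libraries, against 1726, 1568 and 1567 in the sham libraries, a change of 0.56 ± 0.102 (SE, adjusted p = 0.00771). When 1 library was left out, the calls were 1 rise without sham 2 or sham 3, 3 without TAC 1 or sham 1, 5 without TAC 2, 0 falls without TAC 1, TAC 2, sham 1, sham 2 or sham 3 and 2 without TAC 3, and scaling to total reads gave 15 rises and 0 falls. In the secretory pathway list 5 of 42 rose and 2 fell (11.9% and 4.76%, beside 9.17% and 5.64% over all genes). Kdelr3, a receptor that returns proteins to the endoplasmic reticulum (chromosome 15, 79516411 to 79527739), had 1336, 1373 and 1242 normalized reads in the TAC libraries, against 657, 473 and 578 in the sham libraries, a change of 1.22 ± 0.139 (SE, adjusted p = 0.00106), and Tmed3, a cargo receptor of COP vesicles, rose by 0.67. Fits that left out 1 library gave 2 rises without sham 3, 3 without TAC 1 or sham 2, 8 without TAC 3, 0 falls without sham 1, sham 2 or sham 3 and 1 without TAC 1 or TAC 2, and scaling to total reads gave 14 rises and 0 falls.

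The remaining lists held few calls that were kept. Slc16a7, a monocarboxylate transporter, fell by 0.74 among 9 ketone body genes, and Fitm2, a lipid droplet protein, by 0.70 among 30 triglyceride genes. Of the ketone body genes 1 rose and 3 fell, with 1 fall without TAC 1, TAC 2, sham 1, sham 2 or sham 3. Of the triglyceride genes 1 rose and 4 fell, with 1 fall without TAC 1 or sham 3 and 10 without TAC 3. Gstt1 fell by 0.73 among 23 glutathione S-transferases. Of these 1 rose and 3 fell, with 1 fall without TAC 1, sham 1, sham 2 or sham 3 and 5 without TAC 3. Gstm3 rose to 14.6, 21.2 and 20.5 in TAC, against 1.08, 2.36 and 4.47 in sham, by 2.54, at few reads. Of 33 cytochromes P450 2 rose and 3 fell (6.06% and 9.09%, beside 9.17% and 5.64% over all genes). There were 0 rises without TAC 1 and 5 with scaling to total reads. Cyp1a1 fell to 4.88, 3.35 and 4.67 in TAC, against 16.3, 44.9 and 33.0 in sham, and Cyp3a13 to 72.3, 55.8 and 35.5 in TAC, against 170.3, 157 and 182 in sham, and both kept their calls. The 18 histone deacetylases and sirtuins, 33 heat shock protein genes and 21 creatine and adenylate phosphotransfer genes held no call that was kept whichever library was left out.

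**Figure D4:**
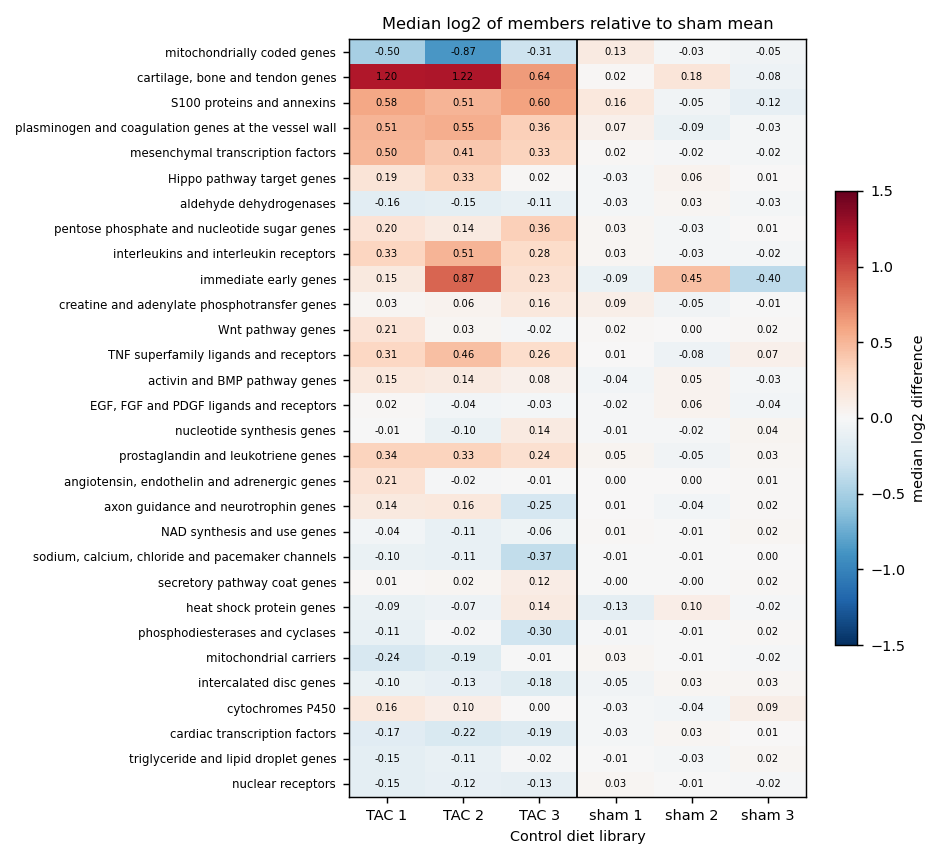
Median log2 value of each list's tested members in each library, relative to the mean of the 3 sham libraries, for lists with at least 5 calls and for the mitochondrially coded genes, with the 3 TAC libraries left of the 3 sham libraries. Cartilage, bone and tendon genes stand at 1.20, 1.22 and 0.64 in TAC 1 to 3, and immediate early genes vary among the sham libraries (-0.09, 0.45 and -0.40).

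Grouped by the letters of their symbols, 198 families had at least 10 tested members and were ranked by the share called, as a description. The count is given beside it where leaving out a library or scaling to total reads moved it by over 1.5 times. Over all genes 9.17% were higher and 5.64% lower. A family holds every symbol with its letters, such as Casp8ap2 in Casp, Anxa11os in Anxa and Col4a3bp in Col. The words in brackets therefore do not describe every member. Camk and Osbpl had the same share lower as Acot, 2 of 10, and Acot was placed first by symbol order. The 8 with the largest shares higher were Mcm (helicase subunits of DNA replication, 6 of 10), Anxa (7 of 12, 4 without sham 2 or sham 3), Col (23 of 41, 15 without TAC 1), Ms (the Ms4a membrane proteins, 6 of 11), Casp (caspases, 4 of 10, 1 without sham 2 and 2 without TAC 1, TAC 2 or sham 1), Mmp (matrix metalloproteinases, 6 of 16, 2 without TAC 1 or sham 2 and 3 without TAC 2 or sham 3), Fkbp (FK506-binding prolyl isomerases, 5 of 14, 2 without TAC 1, sham 2 or sham 3, 9 with scaling to total reads) and Ifi (interferon-induced genes, 5 of 15, 3 without TAC 1). The 8 with the largest shares lower were Kcnj (inward rectifier potassium channels, 6 of 12, 3 without sham 1), Aldh (6 of 19, 2 without sham 1 or sham 2 and 3 without sham 3), Asb (ubiquitin ligase adaptors, 5 of 16, 2 without TAC 1, TAC 2, sham 1 or sham 3 and 3 without sham 2, 2 with scaling to total reads), Dhrs (short-chain dehydrogenases, 3 of 10, 1 without TAC 1, TAC 2, sham 1, sham 2 or sham 3, 1 with scaling to total reads), Abca (lipid transporters, 3 of 11), Pde (6 of 23, 1 without sham 3 and 3 without TAC 1 or sham 2, 1 with scaling to total reads), Fgf (3 of 12, 0 without TAC 1, sham 2 or sham 3 and 1 without TAC 2 or sham 1, 0 with scaling to total reads) and Acot (acyl-CoA thioesterases, 2 of 10, 0 without sham 1 or sham 3 and 1 without TAC 1 or TAC 2, 1 with scaling to total reads). 

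Among members that kept their calls, Ms4a4c rose by 2.19, Ms4a7 by 1.86 and Ms4a6d by 1.67; these genes are known from macrophages, whose markers moved with them. The helicase subunits Mcm5, Mcm6 and Mcm3 rose by 1.10, 0.90 and 0.89. Fkbp5, a co-chaperone of the glucocorticoid receptor, had 5056, 4573 and 5994 normalized reads in the TAC libraries, against 2186, 3025 and 1819.5 in the sham libraries, a change of 1.17 ± 0.181 (SE, adjusted p = 0.00413), and Fkbp10, a collagen chaperone, rose by 0.76. Kcnj2, which codes for the main channel of the inward rectifier current of ventricular myocytes (chromosome 11, 111066164 to 111076821), had 1496, 1629.7 and 1108 normalized reads in the TAC libraries, against 2847, 2458 and 2516 in the sham libraries, a change of -0.90 ± 0.148 (SE, adjusted p = 0.00525). Kcnj12 and Kcnj5 fell by 0.61 and 0.58, whereas Kcnj15 rose by 1.61. Asb15 and Asb14, muscle-enriched adaptors of ubiquitin ligases, fell by 1.04 and 0.78, and Asb15 had 3269.7, 3424 and 3175 in TAC, against 6364, 6991 and 6896 in sham. The lipid transporters Abca4 and Abca6 fell by 1.26 and 0.94. Casp12 rose by 0.71, the metalloproteinases Mmp23 and Mmp19 by 1.38 and 1.02 and the interferon-induced Ifi27l2a and Ifi204 by 1.11 and 0.92. These members were chosen after their values were seen, because their calls were kept.

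The balance in reads holds for the deposited size factors alone, under which the mean level summed over tested genes was 89234764 normalized reads in TAC and 101684390 in sham. On that scale genes called higher gained 3464857 normalized reads in mean level, genes called lower had -8280456 as their summed difference, TAC minus sham, and -5086726 of it was in mitochondrially coded genes. Over all mitochondrially coded genes, called or not, the summed difference was -8100861. Of 33 mitochondrially coded genes 12 fell, 0 (0 by edgeR, 0 by DESeq2, 0 at an unadjusted p below 0.05) rose and 29 had a lower mean in TAC. The falls numbered 5 without sham 1, 7 without sham 2, 7 without TAC 1 and 19 without TAC 3. Single differences were ranked among called genes without overlap of TAC and sham libraries. The largest gains were those of Ankrd1, Nppa, Acta1, Des, Clu, Myh7, Col3a1, Hspb7, Sparc and Postn, which made up 34.0% of the gain. The largest losses were those of mt-Co1, mt-Nd2, mt-Nd5, Atp2a2, Pln, Sdha, Hadha, Ogdh, Hrc and Idh2. The abundant mt-Cytb and mt-Nd1 were not called by limma (adjusted p = 0.0553 and 0.0863) and were therefore not ranked. Clu, or clusterin, a secreted chaperone (chromosome 14, 65968483 to 65981547), had 170517, 170386 and 124236 normalized reads in the TAC libraries, against 46864, 49205 and 48621 in the sham libraries, a change of 1.67 ± 0.144 (SE, adjusted p = 0.000429). Hrc, the histidine-rich calcium-binding protein of the sarcoplasmic reticulum, had 65673, 56989.5 and 67793 normalized reads in the TAC libraries, against 105927, 113294 and 109538 in the sham libraries, a change of -0.79 ± 0.115 (SE, adjusted p = 0.00326), and Hadha, of mitochondrial fatty acid oxidation, fell by 0.63. Acta1 lost its call without TAC 3 (0.0612), Myh7 without sham 1 (0.116), sham 2 (0.0523), sham 3 (0.0787) and TAC 1 (0.0865), Hspb7 without sham 1 (0.086), sham 2 (0.0576) and sham 3 (0.0727), mt-Co1 without sham 1 (0.152), sham 2 (0.117), sham 3 (0.131), TAC 1 (0.104) and TAC 2 (0.0858), mt-Nd2 without sham 1 (0.0593), mt-Nd5 without sham 1 (0.0596), sham 2 (0.058) and sham 3 (0.0592), Pln without sham 1 (0.0735), sham 2 (0.0672), sham 3 (0.0615) and TAC 1 (0.0721), Sdha without sham 2 (0.0566) and sham 3 (0.0571), Ogdh without sham 1 (0.0655), sham 2 (0.14), sham 3 (0.169), TAC 1 (0.0987) and TAC 2 (0.0685) and Idh2 without sham 1 (0.089), sham 2 (0.121), sham 3 (0.0835), TAC 1 (0.0916) and TAC 2 (0.0698), with the adjusted p in brackets.

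Among 62 annotated miRNA genes 4 rose and 0 (0 by edgeR, 2 by DESeq2, 2 at an unadjusted p below 0.05) fell in limma's test (6.45% and 0%, beside 9.17% and 5.64% over all genes). The libraries were selected for poly(A), and mature miRNAs carry no poly(A) tail, so the values are given for the annotated hairpin genes. Mir23b, Mir27b and Mir3074-1 lie within 1 stretch of chromosome 13 (63300484 to 63301283), Mir5125 within Srrm2 on chromosome 17. The mature sequences, from RefSeq GRCm38.p6 with the seed (bases 2 to 8) in capitals, show that the 5 arms listed here carry 5 different seeds.
mmu-miR-27b-5p (chr13:63300718-63300739, plus strand): aGAGCUUAgcugauuggugaac
mmu-miR-27b-3p (chr13:63300760-63300780, plus strand): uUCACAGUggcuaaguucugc
mmu-miR-23b-5p (chr13:63300492-63300512, plus strand): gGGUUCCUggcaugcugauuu
mmu-miR-3074-5p (chr13:63301249-63301270, minus strand): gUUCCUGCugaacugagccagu
mmu-miR-5125 (chr17:23823339-23823358, plus strand): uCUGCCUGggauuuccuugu
Mir27b had 186, 156 and 174 normalized reads in the TAC libraries, against 71.6, 57.9 and 81.3 in the sham libraries, a change of 1.29 ± 0.207 (SE, adjusted p = 0.00482), and kept its call whichever library was left out. Mir3074-1 rose by 0.79 (call lost without TAC 1), Mir23b by 0.81 (lost without sham 2, sham 3 or TAC 1) and Mir5125 by 0.64 (lost without sham 1, sham 2, sham 3 or TAC 1). The protein-coding gene 2010111I01Rik, on whose plus strand Mir23b and Mir27b lie, rose too, with 8324, 7896 and 9366 normalized reads in the TAC libraries, against 4611, 4605 and 5125 in the sham libraries, by 0.83 ± 0.103 (SE, adjusted p = 0.0016). Fancc, on the other strand, was at 522, 534 and 459 in TAC, against 495, 521 and 517 in sham (adjusted p = 0.936). Reads of overlapping genes could not be told apart, since the strand setting of the counting is not given in the sources used here.

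Among long non-coding RNAs of known name, the maternally expressed RNAs Meg3 and Rian of the imprinted Dlk1-Dio3 region both rose. Meg3 (chromosome 12, 109541001 to 109571726) had 4426, 4417 and 3517 normalized reads in the TAC libraries, against 1895, 1916 and 1779 in the sham libraries, a change of 1.14 ± 0.114 (SE, adjusted p = 0.000675). Rian had 2025, 1774 and 2038 normalized reads in the TAC libraries, against 1186, 876 and 879.8 in the sham libraries, a change of 1.00 ± 0.139 (SE, adjusted p = 0.0028), and Snhg18, a snoRNA host gene, rose by 1.11.

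TAC 3 gave the smallest response among the TAC libraries for most rises. It was the lowest of the 3 in 1030 of the 1678 rises, against 354 for TAC 1 and 294 for TAC 2, and in 532 of the 760 rises of at least 2-fold. Over all 18305 tested genes TAC 3 was the lowest in 8024, against 4626 for TAC 1 and 5655 for TAC 2. It was also the highest in 6860, against 5238 and 6207. The median of the 760 rises of at least 2-fold, relative to the sham mean, was 1.59, 1.63 and 1.25 in TAC 1 to 3. Col11a1, for example, had 426, 639 and 77.5 in TAC, against 23.9, 20.1 and 22.3 in sham, and Wisp1, given above, followed the same order. Igfbp2 and Ccl8 did not, with 128, 279 and 399 in TAC, against 17.4, 29.6 and 17.9 in sham for Igfbp2, where TAC 3 was the highest. Proliferating cell markers summed to 11614, 11179 and 6418 in TAC 1 to 3, and macrophage markers to 35751, 36762 and 33468. In the falls TAC 3 did not have the smallest response. The median of the 1032 falls was -0.606, -0.612 and -0.637 in TAC 1 to 3. For the 199 falls of at least 2-fold it was -1.11, -1.29 and -1.38.

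Whether the response depended on the diet was tested as a difference of log2 changes, control diet minus BCAA-free, in a fit of all 12 libraries. Of 17481 genes with a mean of at least 10 in each of the tables, the test called 118 (0.675%), 88 with a larger and 30 with a smaller log2 change on the control diet. Among the 157 genes named by rule 12 were called. The change on the control diet was the larger in size in each of these 12, an outcome that naming genes for their response on the control diet favours. Over all 118 called genes it was the larger in 117. Krt18 changed by 3.36 on the control diet and 0.61 on the BCAA-free diet, where it had 104, 54.2 and 44.3 in BCAA-free TAC, against 48.4, 34.4 and 41.0 in BCAA-free sham, a difference of 2.75 ± 0.384 (SE, adjusted p = 0.00918). Clu changed by 1.67 and 0.35, a difference of 1.32 ± 0.180 (SE, adjusted p = 0.00918), and Sprr1a by 5.49 and 2.21, a difference of 3.28 ± 0.570 (SE, adjusted p = 0.0242). Among the falls Cacna1s changed by -1.15 on the control diet and -0.37 on the BCAA-free diet, a difference of -0.78 ± 0.133 (SE, adjusted p = 0.0235). The mitochondrial phenylalanine tRNA gene mt-Tf changed by -1.68 and 0.06, a difference of -1.74 ± 0.230 (SE, adjusted p = 0.00918). For C1qtnf3 the changes were 4.47 and 0.23, but the difference did not pass (adjusted p = 0.0648). Igfbp2 and Acta1 had the higher change on the BCAA-free diet, 4.60 against 3.47 on the control diet for Igfbp2, a difference not called either (adjusted p = 0.385). The tables of the diets were normalized separately by the authors, and each change was taken within its own table. Of the 12 calls, 12 stayed without control diet TAC 3, 11 without BCAA-free TAC 1, 8 without control diet TAC 1, TAC 2 or sham 1 or BCAA-free sham 3, 4 without control diet sham 2 or sham 3 or BCAA-free TAC 3 or sham 2, and 3 without BCAA-free TAC 2 or sham 1.

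**Figure D5:**
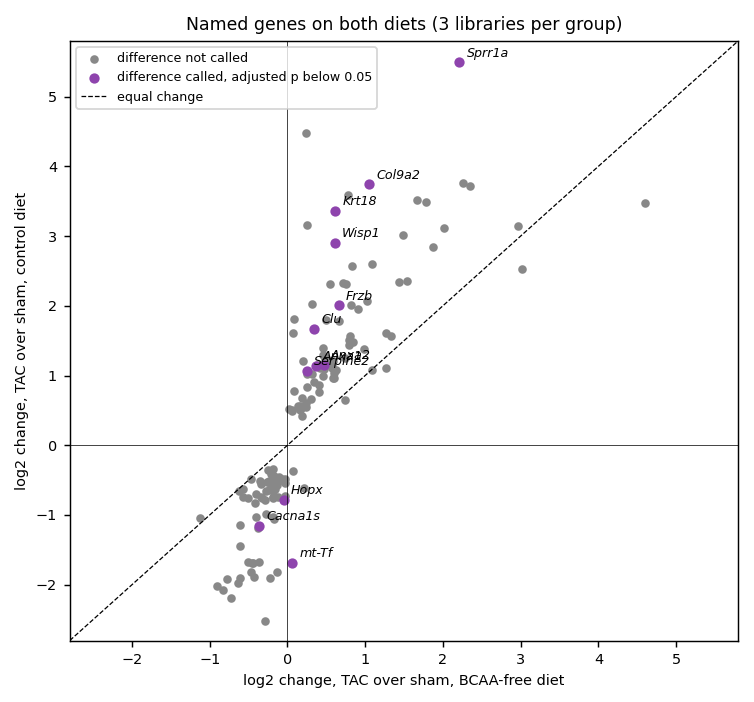
Log2 change of TAC over sham on the control diet (y axis) against the BCAA-free diet (x axis) for the genes named by rule that were tested on both diets, with n = 3 libraries per group and a dashed line of equal change. The 12 genes in purple had a called difference, with Krt18 at 3.36 on the control diet against 0.61; the genes drawn were chosen for their response on the control diet.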

How the data were processed

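RNA was measured in hearts by sequencing of poly(A) RNA. Per the submitters' processing notes the tools included STAR 2.5.2b, Trimmomatic 0.36 and Subread 1.5.2, as well as DESeq2 (no version), on mm10/GRCm38. What each did, which annotation was used and whether counting used strand is not given in the sources used here, so overlapping genes and near-identical copies can share reads. The authors deposited a signal per gene and library, normalized read counts, which are counts divided by a size factor set within each table; 100% of the values came out as whole reads within 0.001 read. The table holds genes with at least 61 reads over its libraries. The deposited fold changes and p-values of the authors were not used, nor were the tables that compare the diets.

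The main test was limma-trend with robust empirical Bayes (limma 3.58.1 in R 4.3.3) on log2(normalized reads + 1), 3 TAC against 3 sham libraries, for genes with a mean of at least 10. P-values were adjusted by Benjamini and Hochberg over all tested genes, and calls had an adjusted p below 0.05. Changes are log2 values, TAC over sham, on that scale, which understates changes of low genes. The difference between diets was tested with 4 group means over 12 libraries. Alternatives were edgeR 4.0.16 and DESeq2 1.42.0 on recovered reads, pseudocounts of 0.5 and 5, no filter or a mean of at least 50, TMM scaling with and without mitochondrially coded genes, scaling to total reads, empirical Bayes that is not robust, a fit of all libraries, a replicate block and leaving out libraries; the scripts were tested on simulated data. Groups and replicate numbers came from the labels. They do not say whether each replicate was another animal: p-values measure the spread between these samples and that spread may be technical. The labels give no batch. Depth of 76460397 to 110450864 reads leaves little counting error except in genes of few reads.

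Members and lists were chosen with earlier results of these data known. Genes were named by rule. A first set was called genes without overlap of TAC and sham libraries and averaging at least 50 normalized reads. Genes with only clone, predicted or ribosomal pseudogene names were left out of it. From this set came the 15 largest rises and falls outside the classical lists. The 10 largest gains and losses of reads came from it too, classical genes included. From each list that is not classical or of a cell type, the 3 called members with the smallest p were taken, whatever their overlap or mean. For the difference between diets 10 of the genes so named were taken. Some genes that the rule names are not reported here. Other genes were chosen after their values were seen, mainly those whose call held in every leave-one-out fit. The list of long non-coding RNAs also holds protein-coding genes, and its count is not given. Of 18333 genes 18284 were found in the GRCm38 annotation (GENCODE release M21), which gave positions.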

Additional observations from a re-analysis of the deposited data

Results flagged for a closer look

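By the interaction term of limma's fit of 12 libraries, 12 of the genes named by rule changed by different amounts after TAC on the 2 diets; the values are log2 changes on the control diet minus those on the BCAA-free diet. Sprr1a differed by 3.28 ± 0.570 (SE, adjusted p = 0.0242). Krt18 differed by 2.75 ± 0.384 (SE, adjusted p = 0.00918) and Col9a2 by 2.69 ± 0.494 (SE, adjusted p = 0.0275). The matricellular gene Wisp1 differed by 2.30 ± 0.371 (SE, adjusted p = 0.0203), the Wnt-binding Frzb by 1.34 ± 0.237 (SE, adjusted p = 0.0251) and the chaperone Clu by 1.32 ± 0.180 (SE, adjusted p = 0.00918). Smaller differences were those of Serpine2, 0.82 (adjusted p = 0.0242), Anxa1, 0.78 (adjusted p = 0.0433), and Anxa2, 0.69 (adjusted p = 0.0356). Among falls, mt-Tf differed by -1.74 ± 0.230 (SE, adjusted p = 0.00918), Cacna1s by -0.78 (adjusted p = 0.0235) and Hopx by -0.73 (adjusted p = 0.0455). Every one of the 3 control diet TAC libraries lay outside the range of the control diet sham libraries in these 12 genes. The groups did not overlap in 6375 (34.8%) of the 18305 tested genes. The naming rule required this of genes named for the size of their change or of their gain or loss of reads, but not of list members. The number of the 12 calls that stayed fell to 3 without BCAA-free TAC 2 or BCAA-free sham 1. Groups of 3 are too small for a check of single outlying samples.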

How the results depend on the processing

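No called value changed sign under an alternative, but with scaling to total reads the median of all genes was 0.17, against -0.02, and the median of 17 of 38 lists turned from below to above 0. With scaling to total reads 3002 genes were higher and 392 lower, against 1678 and 1032. The fit of all 12 libraries gave 2003 lower, and leaving out TAC 3 and sham 2 together gave 1725 lower. Leaving out single libraries gave between 880 and 2481 higher, between 371 and 2198 lower, between 11 and 864 with a larger and between 3 and 893 with a smaller log2 change on the control diet than on the BCAA-free diet; the highest values of all 4 were without control diet TAC 3. The cause was not tested. Same replicate numbers in TAC and sham did not deviate together (correlations of 0.0345, -0.0639 and -0.104 for numbers 1 to 3), so the numbers were not taken to pair the libraries, and only TAC 1 correlated best with the sham library of its own number. With the replicate number as a block 1244 genes were higher and 629 lower, and the diet difference had 38 larger and 12 smaller. Of the 157 genes named by rule, edgeR, DESeq2, TMM scaling and both other pseudocounts kept all calls. The replicate block lost 15, scaling to total reads 19, empirical Bayes that is not robust 4, TMM without mitochondrially coded genes 1, and single libraries left out between 6 (TAC 3) and 41 (sham 3). Of 142 counts of list and family members 55 moved by over 1.5 times with scaling to total reads, 40 with the replicate block, 38 in the fit of all libraries, 21 with DESeq2, 5 with edgeR, 4 with TMM scaling and between 40 (TAC 3) and 70 (TAC 1) with single libraries left out. Depth limits genes of few reads, such as Cyp1a1 and Gstm3; for the others the spread between 3 libraries is the limit.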

Other observations

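Adipocyte genes were uneven within the TAC group. Of 10 markers 4 rose, beside 9.17% over all genes, with a median of 1.35, and 0 kept the call whichever library was left out. Rises numbered 0 without TAC 1, sham 2 or sham 3, 1 without sham 1 and 3 without TAC 3. There were 7 rises without TAC 2 and 7 with scaling to total reads. Ucp1, the uncoupling protein of brown fat, was at 57.7, 10.1 and 172 in TAC, against 4.34, 4.73 and 5.36 in sham. Adipoq, which codes for adiponectin, was at 312, 84.9 and 276 in TAC, against 85.7, 74.5 and 57.2 in sham (adjusted p = 0.0626), Plin1, which coats lipid droplets, at 284, 58.1 and 227 in TAC, against 87.9, 124 and 74.1 in sham (adjusted p = 0.39), and Cidec, another lipid droplet gene, at 288, 69.3 and 246 in TAC, against 55.3, 61.5 and 59.8 in sham (adjusted p = 0.0598). In Ucp1, Adipoq, Plin1 and Cidec TAC 1 and TAC 3 were above every sham library and above TAC 2. TAC 2 was itself above every sham library in Ucp1 and Cidec and within or below their range in Adipoq and Plin1. Ucp1 was called, with a log2 change of 3.06 ± 0.829 (SE, adjusted p = 0.0384), but its call was lost without sham 1, sham 2, sham 3 or TAC 1. Fabp4, which capillary endothelium also makes, was at 57819, 56073 and 55232 in TAC, against 55092, 48183 and 50062 in sham (adjusted p = 0.411).

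Short structured RNAs set sham 2 apart. Mir6236, a miRNA gene by annotation, was at 3401, 7795 and 9687 in TAC, against 5426, 50992 and 3639.9 in sham (adjusted p = 0.727), so sham 2 was above all other libraries and the rest of both groups overlapped. Sham 2 was also the library with the most reads of Rn7sk, Rmrp and Rpph1.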
